A study of Mus musculus with 20 samples.

Results

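The last interval of adipocyte differentiation sampled in this study, day 6 to day 8, was examined in 3T3-L1 cells that carried a scrambled hairpin. The 2 libraries labelled scrambled at day 8 were compared with the 2 labelled scrambled at day 6, which is 4 of the 20 libraries deposited. Of 33581 genes in the files, the 16088 with a deposited mean normalised count of at least 10 at day 6 or at day 8 were tested. 3T3-L1 is a mouse fibroblast line whose cells turn into fat-storing adipocytes when given a hormonal mixture. The study followed it at days 0, 2, 4, 6 and 8 with a scrambled hairpin or with a hairpin against Tcf7l2, a transcription factor of the Wnt pathway, and made 2 libraries per hairpin and day. Both kinds of cell had received a lentiviral SMARTvector hairpin at low passage and had then been selected with puromycin as a mixed population, so the control cells carried the vector and the selection too. Per the labels, a thiazolidinedione was not routinely part of the differentiation medium, and a single scrambled construct served as control. Whether the 2 libraries of a day are separate cultures is not stated in the labels, and the p-values here reflect no more than the variation among these samples, part of which may be technical.

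Late in adipogenesis the transcription factors Pparg and Cebpa keep genes of lipid storage, lipolysis and hormone secretion active, and the maturing cell secretes large amounts of adiponectin and other proteins. Secreted proteins are folded in the endoplasmic reticulum, where chaperones such as Hspa5 are made in larger amounts when unfolded protein accumulates. Differentiation of 3T3-L1 cells is started with a mixture that contains a glucocorticoid and is later withdrawn, and both glucocorticoids and medium changes are known to set the phase of the circadian clock in cultured cells.

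The 4 libraries held 23253419 to 30016094 reads, with 20674 to 20889 genes having at least 1 read and at most 2.00% of reads in a single gene. Libraries of the same number were closer to each other across days than the 2 libraries of a day were. Across the tested genes, the log2 difference between library 2 and library 1 had an SD of 0.681 at day 6 and 0.791 at day 8, against 0.379 and 0.385 in knockdown cells at the same days. Between single libraries of day 8 and day 6 it was 0.397 for the pair numbered 1 and 0.387 for the pair numbered 2, and 0.634 and 0.860 for pairs of unlike number. More than 2-fold differences between the 2 libraries of a day were found for 1883 genes at day 6 and for 2445 at day 8, and between days for 493 genes in libraries 1 and 422 in libraries 2. Tcf7l2 stood at 47.4 and 57.1 RPM at day 6 and 50.5 and 57.1 RPM at day 8 in scrambled cells and at 15 and 17.7 RPM at day 6 and 19 and 16.1 RPM at day 8 in knockdown cells, which matches the labels. Levels (RPM) are recovered reads per 1000000 reads of effective library size, and a log2 change is day 8 minus day 6 in the limma voom fit, with its standard error (SE).

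No gene passed the test. With limma voom and Benjamini-Hochberg adjustment, 0 of 16088 genes (0%) reached an adjusted p under 0.05, the smallest adjusted p was 1.00, and 48 genes had an unadjusted p under 0.05. Those 48 are fewer than a share of 0.05 of the genes tested, which is the share that unchanged genes would give. Differences between the libraries of a day count as spread in this fit, so 0 calls do not show that no gene changed. The count was also 0 in 11 fits with another filter, scaling, weighting, choice of libraries or block and in the 4 fits that left out 1 of the compared libraries, where 30 to 354 genes had an unadjusted p under 0.05. A fit added after the data were seen, with the replicate number as a block over the 6 scrambled libraries of days 4, 6 and 8, called 8 genes, among them Lcn2, Emp1, Acss2 and Col8a1 described below. The same block in the 4 libraries alone, also added later, called 0, with 1364 genes at an unadjusted p under 0.05. Both day 8 libraries lay above both day 6 libraries for 1449 genes (9.01%) and below both for 1153 (7.17%), so the libraries did not overlap for 16.2% of all genes tested. The median log2 change over all tested genes was 0.0095. The groups of genes below are therefore described by their levels in the 4 libraries and by how many members did not overlap. Of the 41 list medians computed, 33 changed sign when 1 of the 4 libraries was left out and all 41 changed sign or moved by over 1.5 times, so a median below describes these 4 libraries together. Leaving out 1 library also leaves the library numbers unequal between the days, so these moves include the difference between library numbers.

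Adipocyte genes separated the libraries by number and not by day. All 20 tested markers of mature adipocytes were higher in library 2 than in library 1 at day 6 and again at day 8, by a median of 2.79-fold and 5.95-fold. The lowest of the 4 levels was in day 8 library 1 for 19 of the 20, and the highest was in day 8 library 2 for 15. Of all 16088 genes tested, 5070 were lowest in day 8 library 1 and 3646 highest in day 8 library 2. For 0 of 20 markers did the days not overlap, beside 16.2% of all genes tested, and the median log2 change of the list was -0.22. That median was 1.04 without day 8 library 1 and -1.58 without day 8 library 2.

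ENSMUSG00000022878.5 (Adipoq), which encodes the hormone adiponectin, stood at 1413 and 2354 RPM at day 6 and 860.1 and 3493 RPM at day 8. The day 8 libraries lay on either side of both day 6 libraries. Its log2 change was -0.08 (SE 0.917), with a limma voom adjusted p of 1.00. Fabp4, the fatty acid carrier of adipocytes, stood at 1532 and 4543 RPM at day 6 and 578 and 4072 RPM at day 8. Plin1, which coats the lipid droplet, stood at 384 and 813 RPM at day 6 and 200.3 and 1156 RPM at day 8. Cidec, which promotes the fusion of lipid droplets, was at 1184 and 3477 RPM at day 6 and 267 and 3500.5 RPM at day 8. For all of these genes both libraries numbered 2 were above both libraries numbered 1.

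The hormones and transporters showed the same order with wider gaps. Retn, which encodes resistin, stood at 192 and 591 RPM at day 6 and 24.2 and 539 RPM at day 8, a log2 change of -1.56 (SE 1.56). Lep, which encodes leptin, was low throughout, at 2.34 and 14.4 RPM at day 6 and 0.814 and 15.3 RPM at day 8. Slc2a4, the insulin-responsive glucose transporter, stood at 43.6 and 251 RPM at day 6 and 24.1 and 259 RPM at day 8. Cfd, the serine protease adipsin, differed from this order. Its levels were 696 and 1841 RPM at day 6 and 926 and 4176 RPM at day 8, so the 2 libraries of day 8 were each above the library of the same number at day 6, while the days still overlapped and the log2 change was 0.80 (SE 1.1). Hsd11b1, the enzyme that regenerates active glucocorticoid, stood at 197 and 305 RPM at day 6 and 108 and 426 RPM at day 8.

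Among 17 tested adipogenic transcription factors, 2 were higher in both day 8 libraries and 1 was lower, which is 17.6% not overlapping beside 16.2% of all genes tested. Pparg, the nuclear receptor at the head of the adipocyte programme, stood at 161 and 393 RPM at day 6 and 107 and 419 RPM at day 8, and the days overlapped. Cebpa, its partner, stood at 209 and 489 RPM at day 6 and 130.0 and 615 RPM at day 8. Klf5, an early factor of adipogenesis, was at 8.54 and 3.48 RPM at day 6 and 2.92 and 2.32 RPM at day 8, lower in both day 8 libraries, with a log2 change of -1.05 (SE 0.701). Ebf2 and Nr3c1, the glucocorticoid receptor gene, were higher in both day 8 libraries, with log2 changes of 0.42 and 0.40, and that of Ebf2 was 0.06 without day 6 library 1.

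**Figure D1:**
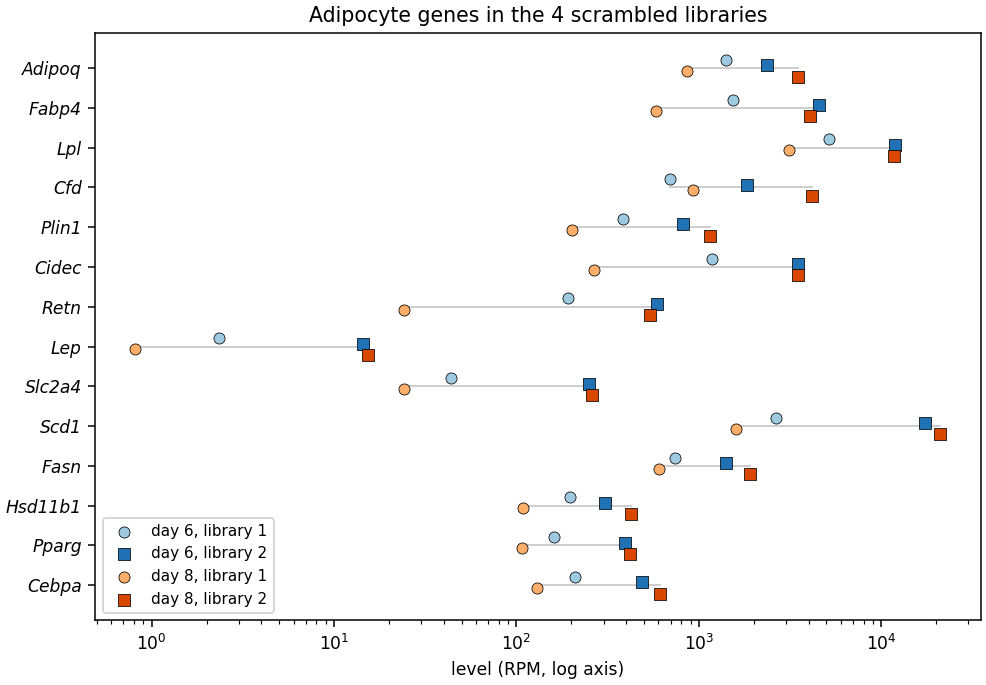
Levels of 14 adipocyte genes in RPM on a log axis, 1 point per library (circles for library 1, squares for library 2; blue for day 6, orange for day 8; a grey line spans the 4 libraries). The squares lie to the right of the circles for all 14 genes, and day 8 library 1 holds the lowest level for all but Cfd.

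The chaperones of the endoplasmic reticulum were the list with the lowest median log2 change among the lists with at least 10 tested members, at -0.74 against 0.0095 for all tested genes. All 18 members had their highest level in day 6 library 2, as did 4692 of all 16088 genes tested. Between libraries of like number the median log2 difference of the list, day 8 minus day 6, was -0.052 for number 1 and -1.354 for number 2. In 7 of 18 both day 8 libraries were below both day 6 libraries, where 7.17% of all genes tested were, and 0 were higher in both. Without day 6 library 2, 7 of 18 were lower in both day 8 libraries than in the remaining day 6 library, against 20.2% of all genes tested, 2 were higher in both, against 23.5%, and the median log2 change was -0.16.

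The promoters of the chaperones are shown because 7 of the 16 list members with a promoter entry hold a match to the endoplasmic reticulum stress response element, searched on both strands as CCAAT followed by 9 bases of any kind and CCACG. Of all 32851 RefSeq promoter windows of 300 bases (250 before to 50 after the start, GRCm38.p6), 39 hold it, which is 0.119%. The 7 genes were Calr, Canx, Creld2, Dnajc3, Hsp90b1, Hspa5 and Pdia6. The 4 windows below belong to genes that were lower in both day 8 libraries, and capitals mark the match. They lie at chr2:34771840-34772139 (plus strand), chr10:86705395-86705694 (minus strand), chr12:17266339-17266638 (plus strand) and chr15:88819396-88819695 (plus strand), and each is written 5′ to 3′ along its gene. Hsp90b1 has 2 matches and the others 1.
Hspa5: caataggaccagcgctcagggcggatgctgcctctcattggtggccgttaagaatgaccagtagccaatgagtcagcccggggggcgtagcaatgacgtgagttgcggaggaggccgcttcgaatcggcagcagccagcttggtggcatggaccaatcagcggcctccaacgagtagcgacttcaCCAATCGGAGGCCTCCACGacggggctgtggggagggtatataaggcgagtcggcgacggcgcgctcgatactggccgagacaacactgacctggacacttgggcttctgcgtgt
Hsp90b1: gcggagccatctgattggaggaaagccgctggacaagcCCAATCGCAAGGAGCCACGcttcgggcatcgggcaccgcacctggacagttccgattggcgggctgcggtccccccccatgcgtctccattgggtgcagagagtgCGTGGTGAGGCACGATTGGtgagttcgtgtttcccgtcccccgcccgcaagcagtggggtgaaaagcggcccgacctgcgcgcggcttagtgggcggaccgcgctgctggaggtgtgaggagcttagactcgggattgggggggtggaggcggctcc
Pdia6: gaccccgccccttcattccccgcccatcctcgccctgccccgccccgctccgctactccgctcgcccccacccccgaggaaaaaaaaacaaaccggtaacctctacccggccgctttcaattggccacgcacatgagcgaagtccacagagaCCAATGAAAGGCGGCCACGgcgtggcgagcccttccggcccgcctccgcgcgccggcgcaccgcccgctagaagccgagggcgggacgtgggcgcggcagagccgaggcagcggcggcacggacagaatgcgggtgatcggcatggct
Creld2: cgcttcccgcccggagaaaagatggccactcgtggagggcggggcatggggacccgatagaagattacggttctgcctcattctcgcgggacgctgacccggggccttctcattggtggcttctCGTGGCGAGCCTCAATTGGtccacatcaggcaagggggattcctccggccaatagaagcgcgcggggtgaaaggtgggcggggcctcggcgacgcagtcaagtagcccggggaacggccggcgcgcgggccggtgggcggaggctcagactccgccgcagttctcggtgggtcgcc

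Hspa5 (ENSMUSG00000026864.7), the main chaperone of the compartment, stood at 901 and 3162 RPM at day 6 and 790.0 and 713 RPM at day 8. Day 6 library 2 was far above the other 3 libraries, which lay within a narrow range, and the days did not overlap. Its log2 change was -1.16 (SE 0.52), with an unadjusted p of 0.0425 and a limma voom adjusted p of 1.00. Hsp90b1, the compartment's Hsp90, stood at 467 and 1211 RPM at day 6 and 460.0 and 339.9 RPM at day 8, a log2 change of -0.92 (SE 0.409). The libraries numbered 1 of the 2 days were close to each other. Creld2, a folding factor, was at 31.6 and 97.4 RPM at day 6 and 25.9 and 21.2 RPM at day 8, with a log2 change of -1.25 (SE 0.574).

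The remaining non-overlapping members had the same shape. Sdf2l1, a cofactor of Hspa5, stood at 11.1 and 82.8 RPM at day 6 and 9.14 and 7.88 RPM at day 8, the largest log2 change of the list (-1.85). Manf, a secreted stress-responsive factor, was at 61.2 and 198 RPM at day 6 and 57.8 and 49.3 RPM at day 8. Pdia6, a disulfide isomerase, stood at 214 and 487 RPM at day 6 and 186 and 202 RPM at day 8, and Dnajb11, a co-chaperone, had a log2 change of -0.69. Calr, which binds calcium and folds glycoproteins, overlapped between days, at 1058 and 2125 RPM at day 6 and 1069.8 and 732 RPM at day 8. Ero1l, the oxidase that supplies disulfide bonds, is on the hypoxia list and was at 90.8 and 876 RPM at day 6 and 146 and 197 RPM at day 8, with day 6 library 2 again the highest.

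Without day 6 library 2 the log2 change was -0.26 for Hspa5, -0.24 for Hsp90b1, -0.43 for Creld2, -0.39 for Sdf2l1 and -0.18 for Dnajb11. In knockdown cells no such level was measured at day 6. Hspa5 stood there at 897 and 906 RPM at day 6 and 1022 and 1118 RPM at day 8, and 9 of the 18 chaperones were higher in both day 8 knockdown libraries (14.3% of all genes tested were) and 0 were lower (13.3% were). The difference between the scrambled and the knockdown change was -1.41 (SE 0.584) for Hspa5, with an unadjusted p of 0.0306 and a limma voom adjusted p of 1.00. At day 4 the scrambled libraries held 1156 and 2091 RPM, with library 2 also the higher. Of all 16088 genes tested, 4692 were highest in scrambled day 6 library 2 among the libraries compared. Of the 20 tested genes of the integrated stress response, 17 were. In both scrambled day 8 libraries 1 was higher and 0 lower, beside 9.01% and 7.17% of all genes tested. The median log2 change of this list was -0.20, and it was 0.22 without day 6 library 2. The part of day 6 library 2 in these values can be read from the levels, and its cause was not tested.

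**Figure D2:**
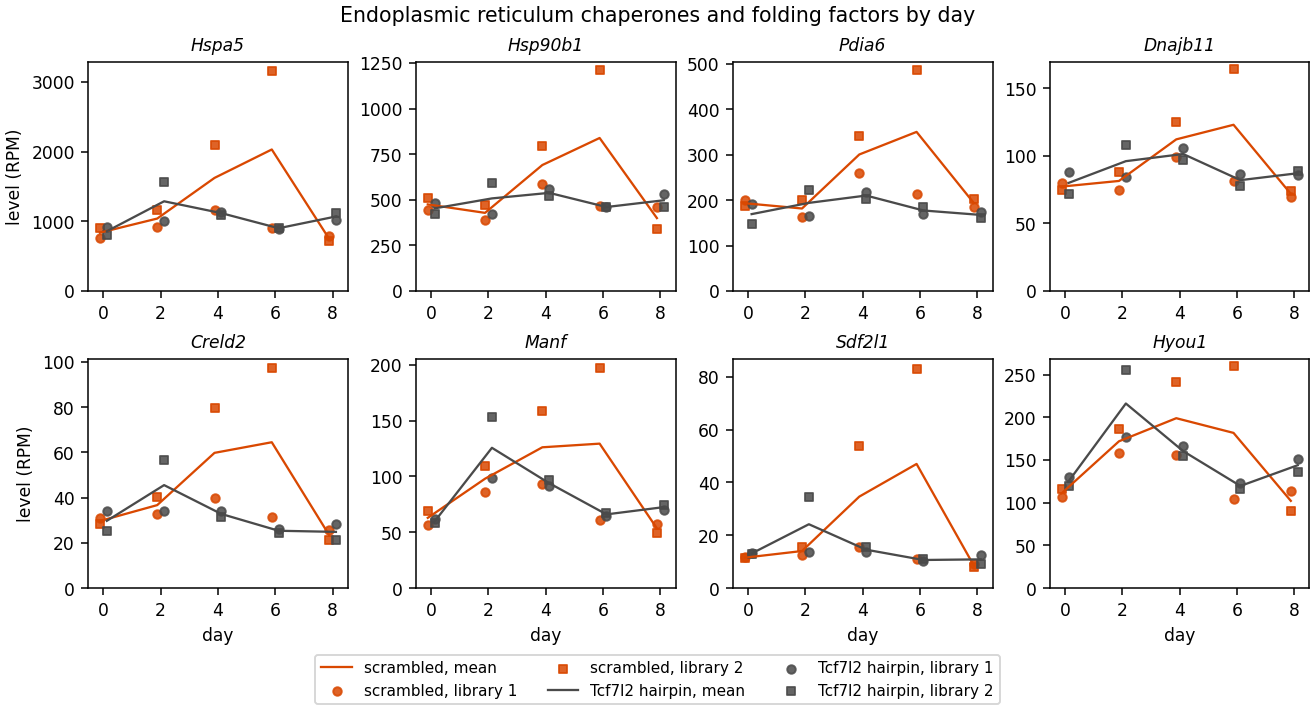
Levels in RPM of 8 endoplasmic reticulum chaperones and folding factors at days 0, 2, 4, 6 and 8, 1 point per library (circles library 1, squares library 2) and a line through the means of 2 libraries, orange for scrambled and grey for knockdown cells. At day 6 the scrambled library 2 stands apart (3162 RPM for Hspa5) from scrambled library 1 and both knockdown libraries, and at day 8 the 2 scrambled libraries lie closer together than at day 6.

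Clock genes were the list with the largest share of members higher in both day 8 libraries among lists of at least 10 tested members. Of 19 members, 8 were higher in both day 8 libraries (9.01% of all genes tested were) and 1 was lower (7.17%). The 8 were Nr1d1, Nr1d2, Dbp, Tef, Hlf, Per3, Bhlhe40 and Ciart, and the 1 lower was Per1. The median log2 change of the list was 0.17 and ranged from -0.13, without day 6 library 1, to 0.65, without day 6 library 2. Between libraries of like number the median log2 difference, day 8 minus day 6, was 0.181 for number 1 and -0.023 for number 2. The counts also depended on the libraries. Without day 8 library 1, in which Nr1d1, Nr1d2 and Dbp were highest, 9 of 19 were higher and 1 lower, against 27.5% and 24.3% of all genes tested, and without day 6 library 2, 11 were higher and 1 lower, against 23.5% and 20.2%. Without day 6 library 1, 8 were higher and 10 lower, against 33.5% and 31.8%, and without day 8 library 2, 8 were higher and 8 lower, against 36.7% and 34.8%, so in these no excess of higher over lower members was left.

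Nr1d2 (ENSMUSG00000021775.9), a nuclear receptor that represses Arntl, stood at 35.9 and 35.2 RPM at day 6 and 78.3 and 45.4 RPM at day 8. The 2 libraries of day 6 were close to each other, and both day 8 libraries were above them. The log2 change was 0.75 (SE 0.317), with an unadjusted p of 0.0338 and a limma voom adjusted p of 1.00. Nr1d1, its paralog, stood at 16.7 and 23.3 RPM at day 6 and 51.2 and 30.1 RPM at day 8, with a log2 change of 0.99 (SE 0.475). Dbp, a transcription factor that binds D-boxes and is driven by the clock, was at 17 and 24.5 RPM at day 6 and 46.5 and 36.1 RPM at day 8. For these 3 genes day 8 library 1 was the highest of the 4, and the log2 change of Dbp was 1.00 (SE 0.544).

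Per3, a period gene, had little spread within a day, at 39.8 and 46.1 RPM at day 6 and 60.9 and 63.7 RPM at day 8. Tef, which binds the same D-box as Dbp, stood at 175 and 172 RPM at day 6 and 198 and 212 RPM at day 8, and Hlf, the least expressed of that family, at 0.862 and 1.03 RPM at day 6 and 1.55 and 1.65 RPM at day 8. Bhlhe40, a repressor of the clock, was at 44.9 and 58.1 RPM at day 6 and 71.5 and 109 RPM at day 8. Ciart (Gm129 in the files), another repressor, was at 1.4 and 1.88 RPM at day 6 and 3.15 and 2.6 RPM at day 8. Per1, a period gene that also responds to glucocorticoids, went the other way, at 51.4 and 78.5 RPM at day 6 and 34.1 and 44.1 RPM at day 8, with a log2 change of -0.71 (SE 0.266) and an unadjusted p of 0.0184. Arntl and Clock, the activators of the loop, overlapped between days, with log2 changes of -0.33 and -0.20, which were -0.04 for Arntl without day 6 library 2 and 0.0048 for Clock without day 8 library 1.

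The clock genes were also measured in knockdown cells. Of the 19, 8 were higher in both day 8 knockdown libraries (14.3% of all genes tested were) and 3 were lower (13.3%). Nr1d2 stood there at 38.1 and 29.3 RPM at day 6 and 74.7 and 55.7 RPM at day 8, Dbp at 12.8 and 19.3 RPM at day 6 and 37.8 and 34.3 RPM at day 8 and Nr1d1 at 13.2 and 14.5 RPM at day 6 and 46.8 and 25.3 RPM at day 8. In both hairpins library 1 was the higher at day 8 for Nr1d1, Nr1d2 and Dbp. The hour of sampling is not given in the labels, and its part in these values was not tested.

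Promoters of 16 of the 19 clock genes were found in the RefSeq table. An E-box, searched as CACGTG, lies in windows of 5 of them (Bhlhe41, Ciart, Cry1, Per1 and Tef). That is 6 of the 21 windows of the 16 genes (28.6%), against 7.15% of all windows. A D-box, searched as TTATGTAA on both strands, lies in the window of 1 (Per3). That is 1 of the 21 windows (4.76%), against 0.938% of all windows. The windows of Ciart (chr3:95882179-95882478, minus strand, 3 E-boxes in capitals) and Per3 (chr4:151044616-151044915, minus strand, 2 D-boxes in capitals) are shown. They are examples with repeated matches among the genes higher at day 8.
Ciart: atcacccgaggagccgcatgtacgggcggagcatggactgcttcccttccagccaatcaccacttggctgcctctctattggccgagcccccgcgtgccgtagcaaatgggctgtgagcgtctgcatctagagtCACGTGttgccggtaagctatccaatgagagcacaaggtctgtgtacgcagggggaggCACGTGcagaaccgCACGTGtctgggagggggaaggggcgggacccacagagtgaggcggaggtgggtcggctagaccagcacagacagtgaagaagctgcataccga
Per3: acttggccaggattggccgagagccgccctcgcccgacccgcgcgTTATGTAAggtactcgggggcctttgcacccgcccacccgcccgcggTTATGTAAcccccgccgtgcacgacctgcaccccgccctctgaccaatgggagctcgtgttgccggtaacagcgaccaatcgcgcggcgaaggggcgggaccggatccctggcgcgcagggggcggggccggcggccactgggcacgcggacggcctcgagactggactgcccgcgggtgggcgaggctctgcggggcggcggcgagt

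Of 15 tested genes that respond to glucocorticoids, 5 were lower in both day 8 libraries (Fkbp5, Tsc22d3, Per1, Zbtb16 and Errfi1), where 7.17% of all genes tested were, and 2 were higher (Nr3c1 and Ddit4), where 9.01% were. The median log2 change was -0.19, and it was -0.05 without day 6 library 2. Fkbp5, a co-chaperone of the glucocorticoid receptor, stood at 112 and 95.1 RPM at day 6 and 93.7 and 55.4 RPM at day 8, a log2 change of -0.52 (SE 0.243). Zbtb16, a zinc finger repressor, was at 27.4 and 43.9 RPM at day 6 and 16.4 and 20.1 RPM at day 8. Errfi1, a feedback inhibitor of the EGF receptor, was at 81.6 and 173 RPM at day 6 and 53.7 and 78.8 RPM at day 8, with both libraries of day 8 below day 6 library 1. Ddit4, an inhibitor of mTORC1, was higher, at 26.8 and 29.2 RPM at day 6 and 42.9 and 72 RPM at day 8. In knockdown cells 6 of the 15 were lower in both day 8 libraries (13.3% of all genes tested were) and 1 was higher (14.3% were).

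Fkbp5 and Tsc22d3 had far higher levels earlier in the scrambled cells. Fkbp5 stood at 1248 and 1372 RPM at day 2 and at 713 and 735 RPM at day 4. Tsc22d3, a mediator of anti-inflammatory glucocorticoid effects, stood at 641 and 489 RPM at day 4 and at 83.7 and 101 RPM at day 6 and 80.3 and 80.9 RPM at day 8. For both genes the day 6 to day 8 difference was small beside the one from day 4 to day 6.

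**Figure D3:**
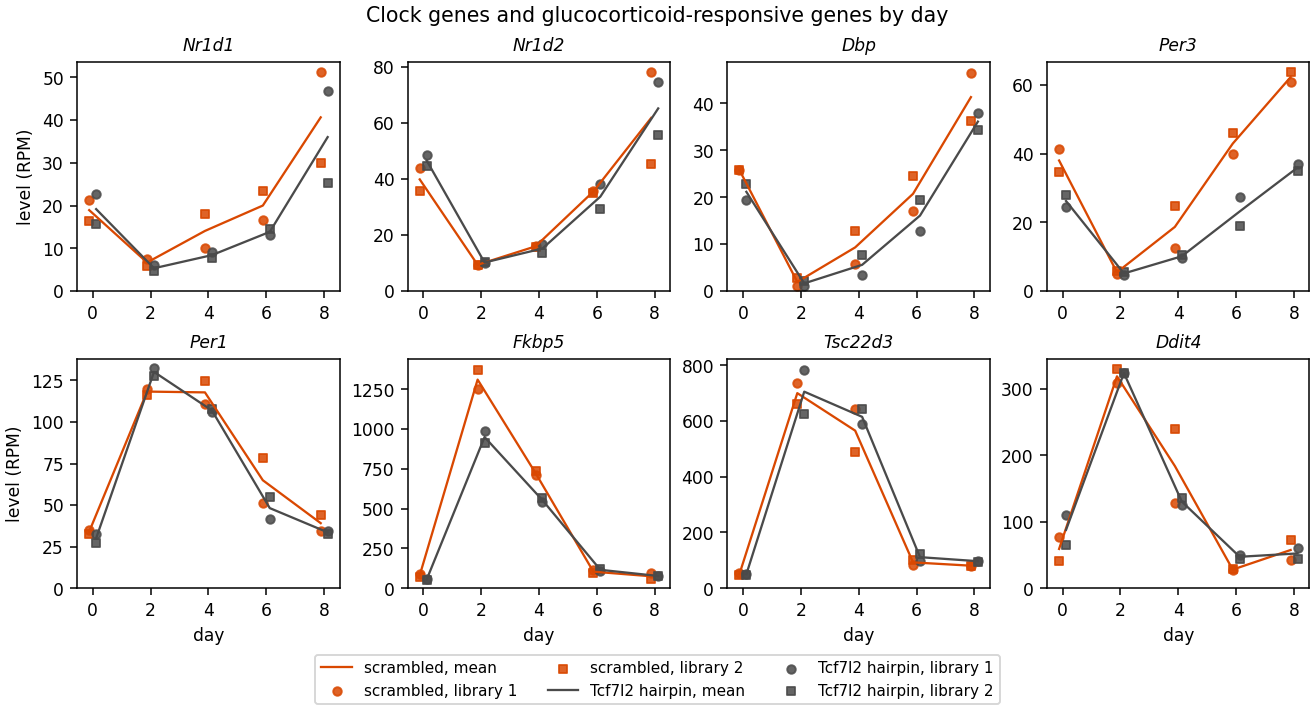
Levels in RPM of 5 clock genes and 3 further glucocorticoid-responsive genes at days 0, 2, 4, 6 and 8, 1 point per library (circles library 1, squares library 2) with a line through the means, orange for scrambled and grey for knockdown cells. Nr1d1, Nr1d2, Dbp and Per3 stand higher at day 8 than at day 6 in both hairpins, and Fkbp5 and Tsc22d3 lie far below their day 4 levels at both later days.

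Lcn2 (ENSMUSG00000026822.9), which encodes lipocalin 2, a secreted iron-siderophore binder of the acute phase, had the smallest unadjusted p among genes above the median level. It stood at 32.5 and 49.4 RPM at day 6 and 3.89 and 3.52 RPM at day 8, so both day 8 libraries were close together and far below both day 6 libraries. The mean level was 40.9 ± 12 RPM at day 6 and 3.7 ± 0.26 RPM at day 8 (SD, n = 2), and day 8 was 9.05% of day 6. The log2 change was -3.43 (SE 0.801), with an unadjusted p of 0.0008 and a limma voom adjusted p of 1.00. In knockdown cells Lcn2 was already low at day 6, at 3.27 and 7.71 RPM at day 6 and 2.99 and 3.7 RPM at day 8, and the difference between the scrambled and the knockdown change was -2.78 (SE 0.934), with an unadjusted p of 0.0102 and an adjusted p of 1.00.

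Retnla, which encodes the resistin-like protein Fizz1, was singled out after its values were seen, since its level is below the median of tested genes. It stood at 6.4 and 6.09 RPM at day 6 and 0.444 and 0.598 RPM at day 8, and at 13.1 and 25.2 RPM at day 4. The libraries of each day were close, and the log2 change was -3.55 (SE 1.1).

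Of 19 tested inflammatory and acute phase genes, 3 were lower in both day 8 libraries (Lcn2, C3 and Cxcl1) and 2 were higher (Cp and Il6), beside 7.17% and 9.01% of all genes tested. The median log2 change was -0.20, and it was 0.05 without day 6 library 2. C3, the central complement component, stood at 3487 and 5444 RPM at day 6 and 1636 and 3476 RPM at day 8, lower in both day 8 libraries, though day 8 library 2 was only just below day 6 library 1. Cxcl1, a neutrophil chemokine, was at 6.49 and 5.55 RPM at day 6 and 3.04 and 3.48 RPM at day 8. Hp, which encodes haptoglobin and is made by adipocytes, overlapped between days, at 42.8 and 239.9 RPM at day 6 and 11.1 and 174 RPM at day 8.

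Immediate early genes, which respond within minutes to serum and growth factors, were lower in both day 8 libraries for 4 of 19 (Fos, Egr3, Nr4a1 and Klf6) and higher for 1 (Ier3), beside 7.17% and 9.01% of all genes tested, with a median log2 change of -0.29. Fos stood at 4.35 and 5.86 RPM at day 6 and 1.67 and 4.05 RPM at day 8 and Nr4a1, an orphan nuclear receptor, at 22.1 and 29.6 RPM at day 6 and 15.4 and 20.3 RPM at day 8. Among 16 genes listed as cytosolic heat shock chaperones 3 were lower (Hspa8, Hsp90aa1 and Chordc1) and 0 higher. That is 18.8% not overlapping beside 16.2% of all genes tested, with a median log2 change of -0.21. The list also holds Hspd1, a mitochondrial chaperone, whose days overlapped. Hspa8, the constitutive Hsp70, stood at 1608 and 1628 RPM at day 6 and 1284 and 1396 RPM at day 8.

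Mitochondrial genes had an ordering of libraries in common. Of all 16088 genes tested, 4692 were highest in day 6 library 2 and 5070 lowest in day 8 library 1. All 20 tested nuclear-encoded subunits of the respiratory chain had their highest level in day 6 library 2 and their lowest in day 8 library 1. At both days library 2 was above library 1 for 20 of 20, by a median of 2.03-fold at day 6 and 2.28-fold at day 8. Day 8 library 2 was above day 6 library 1 for every member, so the days overlapped. The median log2 change was -0.38, and it was 0.20 without day 8 library 1 and 0.10 without day 6 library 2. Between libraries of like number the median log2 difference, day 8 minus day 6, was -0.508 for number 1 and -0.304 for number 2. All 20 members were lower on average at day 8. Cycs, cytochrome c, stood at 215 and 523 RPM at day 6 and 93.3 and 363 RPM at day 8, and Atp5b, the catalytic beta subunit of ATP synthase, at 1158 and 2547 RPM at day 6 and 789 and 1930.3 RPM at day 8. In the TCA cycle list 0 of 19 were non-overlapping, beside 16.2% of all genes tested. The lowest level was in day 8 library 1 for all 19. Its median of -0.41 became 0.30 without day 8 library 1 and 0.19 without day 6 library 2. Between libraries of like number the median log2 difference was -0.522 for number 1 and -0.365 for number 2. On average 18 of the 19 were lower at day 8 and 1 was higher. Of 18 genes of fatty acid oxidation, 1 was higher in both day 8 libraries (Cpt1a, the gatekeeper of fatty acid entry into mitochondria, with a log2 change of 0.18) and 0 were lower. The shares of all genes tested were 9.01% and 7.17%. In knockdown cells 10 of the 20 respiratory chain subunits and 8 of the 19 TCA cycle genes were lower in both day 8 libraries, where 13.3% of all genes tested were.

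Genes of lipid synthesis were spread by library as the adipocyte markers were. Of 22 genes of fatty acid and triglyceride synthesis, 3 were higher in both day 8 libraries (Acss2, Elovl6 and Lpin2) and 0 were lower, which is 13.6% not overlapping beside 16.2% of all genes tested. The median log2 change was -0.03 and ranged from -0.75, without day 8 library 2, to 0.72, without day 8 library 1. Acss2, which makes acetyl-CoA from acetate in the cytosol, stood at 33.2 and 47 RPM at day 6 and 63 and 93.6 RPM at day 8, with a log2 change of 0.96 (SE 0.403) and an unadjusted p of 0.0327. Scd1, the stearoyl-CoA desaturase, stood at 2660.0 and 17439 RPM at day 6 and 1605 and 21093 RPM at day 8, the highest level of the list. Fasn, the fatty acid synthase, was at 744 and 1416 RPM at day 6 and 608 and 1918 RPM at day 8, and Lpl, which releases fatty acids from lipoproteins, at 5142 and 11875 RPM at day 6 and 3117 and 11762 RPM at day 8. For Scd1, Fasn and Lpl both libraries numbered 2 were above both numbered 1. Of 22 genes of cholesterol synthesis and uptake, 1 was higher in both day 8 libraries and 0 lower. The shares of all genes tested were 9.01% and 7.17%. Day 8 library 2 held the highest level for 19 of the 22, and for 3646 of all 16088 genes tested. Srebf2, the transcription factor that drives this pathway, was the 1 that did not overlap, at 102 and 118 RPM at day 6 and 151 and 173 RPM at day 8. Insig1, which holds that factor back and is its target, stood at 214 and 403 RPM at day 6 and 336 and 795 RPM at day 8.

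**Figure D4:**
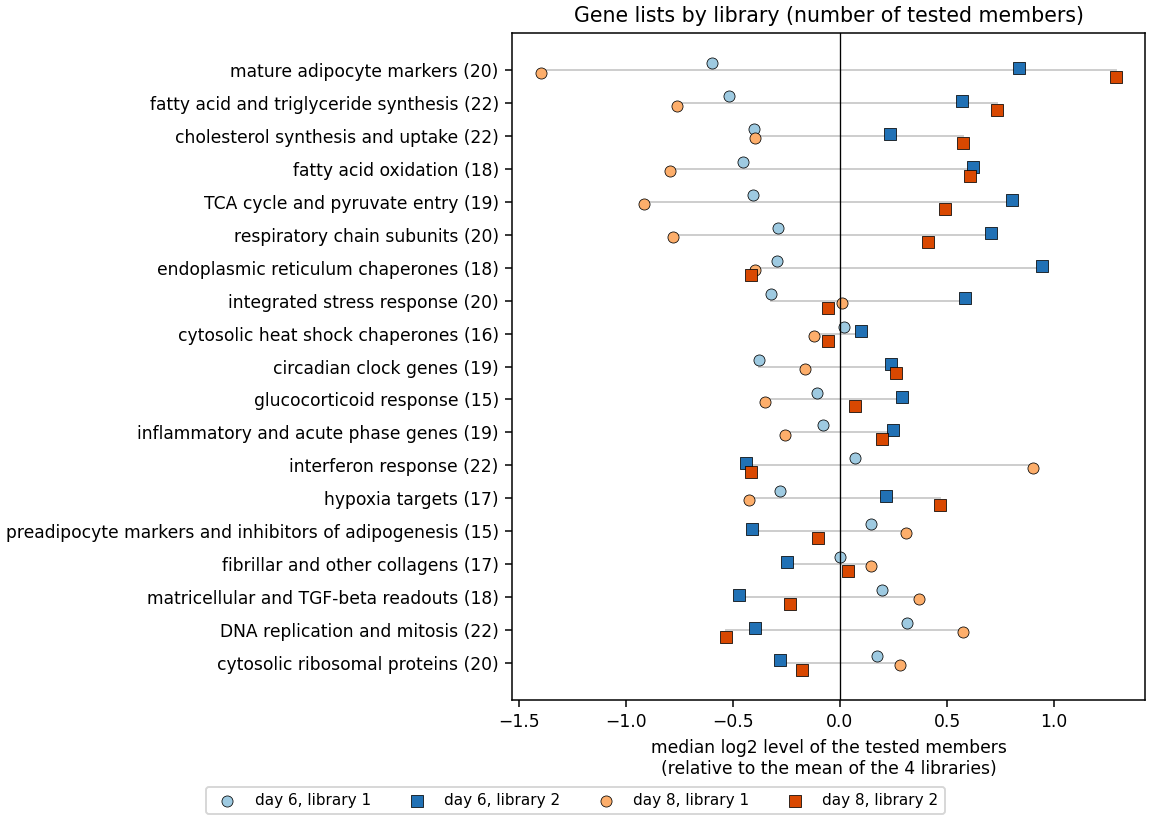
Median log2 level of the tested members of 19 gene lists in each of the 4 libraries, relative to each gene's mean over the 4 (circles library 1, squares library 2; blue day 6, orange day 8). Adipocyte, lipid and mitochondrial lists are split by library number, the endoplasmic reticulum chaperones are high in day 6 library 2, and the interferon list is high in day 8 library 1.

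Markers of preadipocytes had the reverse order. Library 2 was above library 1 for 3 of 15 at day 6 and for 3 of 15 at day 8. In both day 8 libraries 1 was higher (Hes1, a Notch target) and 0 were lower, beside 9.01% and 7.17% of all genes tested. The median log2 change was 0.14. Dlk1, the preadipocyte inhibitor of differentiation, stood at 1875 and 1085 RPM at day 6 and 2906 and 1760.1 RPM at day 8, and the days overlapped. Of 17 collagens, 3 were higher in both day 8 libraries (Col8a1, Col3a1 and Col6a1) and 0 were lower, which is 17.6% not overlapping beside 16.2% of all genes tested. Col8a1, a short-chain collagen, stood at 3.86 and 2.11 RPM at day 6 and 15.3 and 5.74 RPM at day 8, with a log2 change of 1.71 (SE 0.625). Col3a1, a fibrillar collagen, stood at 8805 and 6655 RPM at day 6 and 10530.0 and 9891 RPM at day 8. Of 19 matrix proteases and inhibitors, 2 were higher, Timp3 among them, and 2 lower (Mmp19 and Adamts5). That is 21.1% not overlapping beside 16.2% of all genes tested. Timp3, a matrix-bound metalloproteinase inhibitor, stood at 15.1 and 10.0 RPM at day 6 and 26.8 and 16.4 RPM at day 8.

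Hypoxia targets were higher in both day 8 libraries for 4 of 17 (P4ha1, Slc2a1, Adm and Hif1a) and lower for 0, beside 9.01% and 7.17% of all genes tested. The median of 0.14 became -0.18 without day 6 library 1 and -0.27 without day 8 library 2. P4ha1, a collagen prolyl hydroxylase, stood at 125 and 119 RPM at day 6 and 192 and 184 RPM at day 8, with little spread within a day, a log2 change of 0.62 (SE 0.246) and an unadjusted p of 0.0239. Of 19 antioxidant genes and Nrf2 targets, 4 were higher (Gstm1, Gstm2, Sod3 and Ephx1) and 0 lower, beside the same shares, with a median of 0.06 that ranged from -0.16, without day 8 library 2, to 0.26, without day 8 library 1. Gstm1, a glutathione transferase, stood at 87.4 and 109 RPM at day 6 and 114 and 162 RPM at day 8, and all 4 of these were also higher in both day 8 libraries of knockdown cells, where 14.3% of all genes tested were. Lysosome and autophagy genes were higher for 3 of 19 (Lamp1, Map1lc3b and Lipa) and lower for 0, which is 15.8% not overlapping beside 16.2% of all genes tested.

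Further lists were set apart by a single library or by library number. Of all 16088 genes tested, 5225 were highest in day 8 library 1 and 3286 lowest in day 8 library 2. Of 22 tested interferon response genes, 21 had their highest level in day 8 library 1. In both day 8 libraries 2 were higher (Irf7 and Oas1a) and 0 lower, beside 9.01% and 7.17% of all genes tested. The median log2 change of 0.31 became -0.21 without day 8 library 1. Isg15, a ubiquitin-like protein induced by interferon, stood at 10.4 and 5.24 RPM at day 6 and 18.8 and 5.24 RPM at day 8. All 20 cytosolic ribosomal protein genes had their highest level in day 8 library 1, and 0 did not overlap, beside 16.2% of all genes tested. Library 2 was above library 1 for 0 of the 20 at day 6 and 0 at day 8, so they were split by number. DNA replication and mitosis genes were highest in day 8 library 1 for 18 of 22 and lowest in day 8 library 2 for 18. Library 2 was above library 1 for 1 of the 22 at day 6 and for 1 at day 8. In both day 8 libraries 1 was lower (Ccne1), beside 7.17% of all genes tested, and 0 were higher, beside 9.01%. The 10 tested histone genes, whose transcripts mostly lack a poly(A) tail, were higher in library 2 than in library 1 at both days for 10 of 10. The 12 mitochondrially encoded genes are listed at 0 in every library. How much of the library differences comes from RNA quality, cell number or the degree of differentiation was not tested, and in bulk RNA fewer cells of a type and less RNA per cell cannot be told apart.

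Markers of other cell types were low. The summed level of the tested macrophage markers was 80.0 and 143 RPM at day 6 and 54.8 and 134 RPM at day 8. Siglec1 alone stood at 50.5 and 122 RPM at day 6 and 24.1 and 113 RPM at day 8, while C1qa, Tyrobp and Emr1 had no read in the 4 libraries and 7 of 14 markers had at most 10 reads in each. Endothelial markers summed to 14.4 to 15.6 RPM over the 4 libraries, with no read for Cldn5 and Sox17. Skeletal muscle markers summed to 33.3 to 66.9 RPM with no read for Myod1, Myf5, Ckm and Pax7, osteoblast and chondrocyte markers to 12.9 to 15.0 RPM, and epithelial markers to at most 2.67 RPM. Adipoq stood at 860 RPM or more in all 4 libraries, against 1.05 and 0.153 RPM in the scrambled libraries of day 0. In day 8 library 1, where it was lowest, the preadipocyte gene Dlk1 stood at 2906 RPM.

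The naming rule also picked genes outside these lists. Emp1, an epithelial membrane protein, stood at 153 and 90.1 RPM at day 6 and 322 and 183 RPM at day 8, a log2 change of 1.05 (SE 0.362). Clec14a, a C-type lectin first known from endothelium, stood at 29.1 and 24.6 RPM at day 6 and 56.7 and 56.2 RPM at day 8, with close libraries at each day and a log2 change of 1.08 (SE 0.4). Fbln5, an elastic fibre protein, stood at 98.1 and 77.2 RPM at day 6 and 130.0 and 119.5 RPM at day 8. Each of these was higher in both day 8 libraries, and each had a limma voom adjusted p of 1.00. Unc5b, a netrin receptor, stood at 54 and 39 RPM at day 6 and 132 and 56.3 RPM at day 8, with day 8 library 1 far above the rest. B4galt1, a galactosyltransferase, was at 108 and 113 RPM at day 6 and 155 and 153 RPM at day 8, and Chsy1, which extends chondroitin sulfate, at 26 and 26 RPM at day 6 and 35.1 and 35.1 RPM at day 8. For these 2 enzymes the libraries of a day agreed closely. Gpr153, an orphan receptor, and Asah1, the lysosomal acid ceramidase, had log2 changes of 0.78 and 0.36.

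In the other direction, Gda, guanine deaminase, was at 81.7 and 111 RPM at day 6 and 46.1 and 72.4 RPM at day 8, and Xdh, xanthine dehydrogenase, which acts next in the breakdown of guanine, at 207 and 256 RPM at day 6 and 168 and 127 RPM at day 8. Both purine enzymes were lower in both day 8 libraries, with log2 changes of -0.72 and -0.66. Dysf, a membrane repair protein, and Rab32, a small GTPase, had log2 changes of -0.86 and -0.74, and the day 8 library 2 level was just under day 6 library 1 for each.

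**Figure D5:**
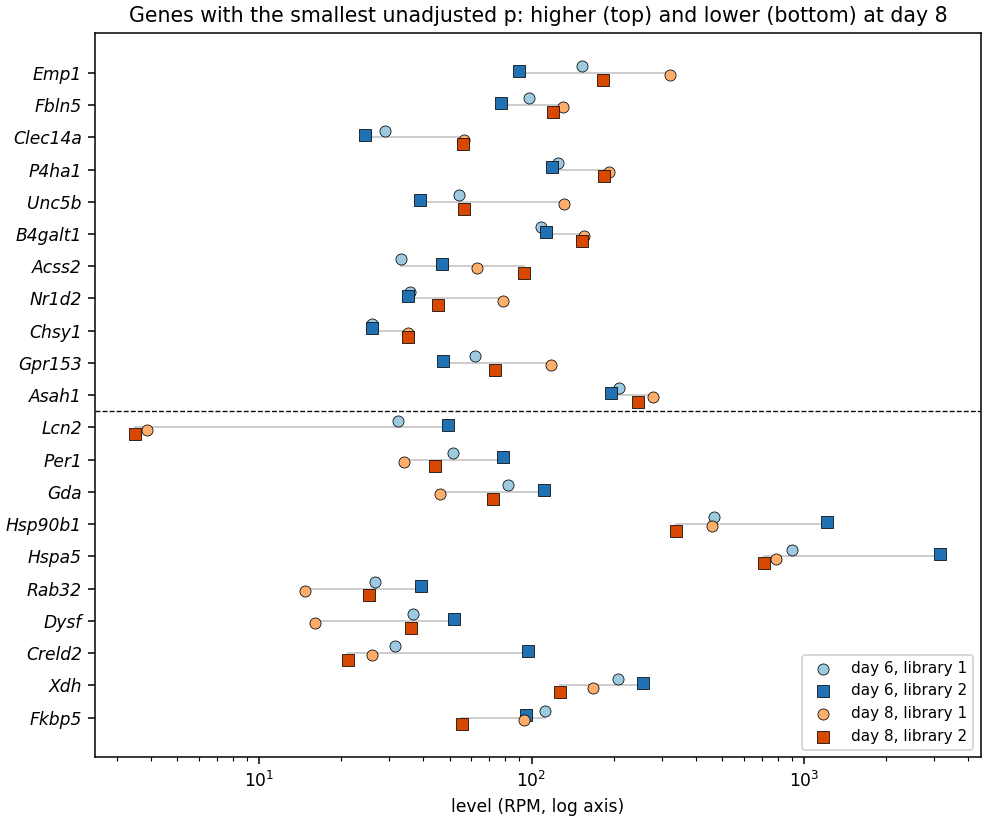
Levels in RPM on a log axis of 21 genes that the naming rule picked, 1 point per library (circles library 1, squares library 2; blue day 6, orange day 8; grey lines span the 4 libraries), 11 higher at day 8 above the dashed line and 10 lower below it. The rule asked for days that do not overlap, and Lcn2 shows the widest gap between the days.

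Whether the change from day 6 to day 8 differed between the hairpins was tested directly. With limma voom 0 of 16088 genes (0%) passed at an adjusted p under 0.05, and 29 had an unadjusted p under 0.05. Those 29 are again fewer than a share of 0.05 of the genes, so 0 calls do not show equal changes in the hairpins. Clec14a, at 14.6 and 15.1 RPM at day 6 and 20.6 and 10.5 RPM at day 8 in knockdown cells, had a difference of 1.15 (SE 0.466) with an unadjusted p of 0.0277. Bahcc1, a chromatin-associated protein gene, had a difference of 0.54 (SE 0.223), and Abcc4, an exporter of cyclic nucleotides, of -0.88 (SE 0.406). None of the lists had a member that passed.

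The change from day 6 to day 8 was also set against that from day 4 to day 6 in the same cells. The 2 intervals share the day 6 libraries. With limma voom 0 of 16088 genes (0%) passed, 138 had an unadjusted p under 0.05, and the smallest adjusted p was 0.535. Those 138 too are fewer than a share of 0.05 of the genes. Over the earlier interval both later libraries were higher for 15.9% of genes and lower for 16.4%, against 9.01% and 7.17% here. Such shares also depend on differences between library numbers, so they do not show how many genes changed in either interval. Tsc22d3 stood at 641 and 489 RPM at day 4, 83.7 and 101 at day 6 and 80.3 and 80.9 at day 8, a difference between the intervals of 2.42 (SE 0.418) with an adjusted p of 0.535. Ddit4 stood at 129 and 239 RPM at day 4, 26.8 and 29.2 at day 6 and 42.9 and 72 at day 8, low at day 6 between 2 higher days, with a difference of 3.64 (SE 0.783). Ccdc80, a secreted adipocyte matrix protein, stood at 179.7 and 154 RPM at day 4, 464 and 557 at day 6 and 348 and 645 at day 8, and Thbs1, thrombospondin 1, at 115 and 53.3 RPM at day 4, 336 and 321 at day 6 and 257 and 172 at day 8. These 2 genes were higher at day 6 than at day 4 in both libraries, with differences between the intervals of -1.71 (SE 0.511) and -2.71 (SE 0.875).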

How the data were processed

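RNA-seq libraries of 3T3-L1 cells were made with the TruSeq kit, per the labels' protocols. Per the submitters' processing notes, TopHat2 2.0.13, Bowtie2 2.2.3.0, SAMtools, DESeq2 1.10.1 and the build mm9 were used, and the read counter and annotation are not given in the sources used here. For each library the authors deposited variance-stabilised log2 values, 1 table per day, with the mean normalised count per gene (a signal) beside them.

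The transformation was inverted table by table to recover reads, of which 100% lay within 0.02 of a whole number up to 100 reads. Libraries were then rescaled together by median of ratios. Genes with a mean of at least 10 at day 6 or day 8 were tested with limma voom (limma 3.58.1, R 4.3.3, statmod 1.5.0), with 10 group means over all 20 libraries, 10 residual degrees of freedom, 1 weight per group (0.498 for scrambled day 6 and 0.381 for day 8), robust estimation and Benjamini-Hochberg adjustment at 0.05. The steps were tested on simulated data. There each library varied independently, without a difference between library numbers shared across days, so the simulation does not show how the fit performs with such a difference.

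The members and gene lists were chosen with earlier results of these data known. Named genes were, per direction, the 12 with the smallest unadjusted p among genes above the median level whose days do not overlap (since none was called), 15 set adipocyte genes including Tcf7l2, up to 3 members per list, and 5 per direction for each test of a difference. Genes with Rik names were left unnamed, some genes are not reported here, and further list members that did not overlap are named as counted. Alternatives were other filters, scalings, weights, libraries in the fit, pseudocounts of 1 and 8, a replicate block and leaving out each library. Promoters are RefSeq windows on GRCm38.p6, and no coordinate of the files was used.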

Additional observations from a re-analysis of the deposited data

How the results depend on the processing

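The count of 0 genes called between day 6 and day 8 in scrambled cells held in 11 fits with other settings, with 33 to 354 genes at an unadjusted p under 0.05, and in the fits that left out 1 of the 4 libraries (0 to 0 called, 30 to 297 unadjusted). In those fits the lone library of a day kept its group's weight. Adding the replicate number to the model as a block gave 0 called genes (154 unadjusted). The labels give both days libraries numbered 1 and 2, and the differences between them correlated across genes at 0.774, but with 2 pairs the samples share only a number. A block in the 4 libraries alone, chosen after the data were seen, called 0 genes (1364 unadjusted). A block in the 6 scrambled libraries of days 4, 6 and 8, also chosen later, called 8: Emp1, Acss2, Col8a1, Mgp and Tnn higher, and Lcn2 (limma voom adjusted p = 0.0053), Bcat2 and Olr1 lower. The test of a difference between hairpins gave 0 in every fit run. The test against the interval from day 4 to day 6 gave 0 except with equal weights, which called 2, Tsc22d3 (limma voom adjusted p = 0.0117) and Cebpd (0.0487), and the cause was not tested.

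Of the 32 genes whose log2 change is given, 23 changed sign or moved by over 1.5 times on the log2 scale when 1 library was left out. The other 9 were Acss2, Asah1, Clec14a, Dbp, Lcn2, Nr3c1, P4ha1, Retnla and Xdh. Hspa5 ranged from -2.07 to -0.26, Hsp90b1 from -1.61 to -0.24, Creld2 from -2.06 to -0.43, Sdf2l1 from -3.29 to -0.39, Ebf2 from 0.06 to 0.80 and Arntl from -0.62 to -0.04. For 4 genes the sign changed. Adipoq ranged from -1.08 to 0.94, Cfd from -0.29 to 1.89, Clock from -0.40 to 0.0048 and Retn from -3.79 to 0.68. Library totals and quantile normalization moved the median of all genes to -0.0002 and 0.0078. With 2 libraries per day and no account of library number, the main fit could not separate a difference of the size seen between libraries from one between days. Whether libraries of like number belong together is not stated in the labels.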
